A study of Mus musculus with 24 samples.

Results

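Cholesterol synthesis was followed in the mouse hypothalamus through 7 genes. They were picked by name, as the transcription factor gene Srebf2 and genes under its control: Insig1, Hmgcs1, Idi1, Fdft1, Sqle and Lss. All 7 were among the 55471 genes counted, and all 7 were among the 18992 genes that passed the filter on low counts. None of the 7 passed the test for a change with overfeeding (adjusted p under 0.05) in the edgeR fit of the 23 libraries used, on either day. Leaving out 1 control library changed that result for Fdft1 on d14, and this is described with that gene. Within groups, Insig1 and Sqle varied together from mouse to mouse.

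Cells make cholesterol from acetyl-CoA through mevalonate, isoprenoids, squalene and lanosterol. When sterols in the endoplasmic reticulum are low, SREBP2 travels to the Golgi, is cleaved there, and switches on the genes of this pathway together with genes for lipoprotein uptake, whereas INSIG proteins hold SREBP2 back when sterols are plentiful. Lipoproteins of the blood hardly cross the blood-brain barrier, so the brain makes its own cholesterol, most of it in glia, and uses much of it for myelin and synapses.

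The mice were wild-type C57BL/6J males, 18 weeks old, fed chow and fitted with a gastric catheter. ExpOF mice received a liquid diet with added sucrose through the catheter, raised stepwise to 150% of their energy need, and Control mice received sterile water at the same flow. Hypothalami were taken on day 14 (d14) or after 3 further days in which both groups received water (d14+3, day 17), from 6 mice per group, with 1 library per mouse. The mice belonged to a July and a September cohort, with 3 mice of each group in each. The study removed 1 Control d14 mouse for poor RNA quality. It was identified here as Control d14 replicate 4, of the September cohort, because leaving out that library best matched the mean expression values given with the study. Its labelled RNA integrity number (RIN) is 9.8. Results are therefore given over 23 libraries, with 5 in Control d14, and values with all 24 stand beside those they moved most.

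Totals ran from 8928182 to 34848437 counts per library in the 23 used. The 7 hypothalamic marker genes (summed level of 412 to 1104 CPM, the count scaled to a common library size) and the 5 neuronal ones (2618 to 3326 CPM) were present in all of these. In Control d14 replicate 4 the same sums were 2446 and 1894 CPM, and the 3 choroid plexus markers that passed the filter summed to 4528 CPM. These choroid plexus markers were also high in 1 other Control d14 library (2987 CPM) and in 1 ExpOF d14+3 library (1239 CPM), against at most 36.1 CPM in the rest. The mean RIN was lower in Control than in ExpOF on both days, at 9.2 ± 0.860 (SD, n = 5) against 9.75 ± 0.138 (SD, n = 6) on d14 and 8.62 ± 1.09 (SD, n = 6) against 9.43 ± 0.450 (SD, n = 6) on d14+3. Its part in the results was not tested beyond a fit with RIN as a covariate. In whole tissue, fewer cells of a type and less RNA per cell cannot be told apart.

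SREBP2 binds sterol regulatory elements, of which TCACNCCA and the longer TCACCCCAC are common spellings. RefSeq promoter windows of GRCm38.p6 (the assembly also called mm10), from 250 bases before to 50 bases after a gene's start, were at hand for 5 of the 7 genes: Srebf2, Insig1, Hmgcs1, Idi1 and Lss. No window was used for Sqle or Fdft1. TCACNCCA was found on either strand in 2 of the 5, Hmgcs1 and Srebf2. It was found in 4.36% of the 32851 windows used for comparison, which were those of full length with a chromosome left out. The first 150 bases of each of these 2 windows are shown because they place the element. The letters in capitals are the match, on the strand of the gene.
Hmgcs1, chr13:119690101-119690250, plus strand: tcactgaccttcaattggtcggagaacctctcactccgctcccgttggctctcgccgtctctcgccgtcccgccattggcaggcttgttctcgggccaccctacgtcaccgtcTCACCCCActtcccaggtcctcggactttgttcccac
Srebf2, chr15:82147019-82147168, plus strand: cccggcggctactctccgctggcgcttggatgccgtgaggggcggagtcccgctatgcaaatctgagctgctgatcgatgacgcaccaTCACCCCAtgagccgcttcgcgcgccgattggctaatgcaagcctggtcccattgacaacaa

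The match began 137 bases upstream of the RefSeq start in Hmgcs1 and 162 bases upstream of it in Srebf2. That start is not the first base of the gene coordinates given below, which come from the deposited table. In Hmgcs1 the base that followed made it TCACCCCAC as well, a spelling held by 0.551% of windows and by no other of the 5. CCAAT, a box bound by NF-Y, and GGGCGG, a box bound by SP1, were each found in all 5 windows on either strand, against 37.4% and 35.7% of the comparison windows. CACGTG, an E-box, was found in Insig1 alone, and in 7.15% of the comparison windows. These are matches of letters and no measurement of binding.

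Compared per length, as counts scaled by gene length and library size (RPKM, mean ± SD over 23 libraries), Hmgcs1 stood highest at 54.0 ± 4.02. Srebf2 (32.2 ± 2.09), Insig1 (31.0 ± 3.53) and Fdft1 (28.4 ± 2.81) followed. Sqle stood at 17.2 ± 1.01, Lss at 5.29 ± 0.517 and Idi1 at 1.93 ± 0.457. The ranges of Srebf2 and Insig1 overlapped, as did those of Insig1 and Fdft1, while the other neighbours in this order were separated in every library. Hmgcs1 lay above 95.9% of the tested genes by this measure and Idi1 above 37.7%. Sqle varied least among mice of the same group, with an SD of 0.09 on the log2 scale, followed by Hmgcs1 and Srebf2 with 0.10 each, and Idi1 varied most (0.34).

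**Figure D1:**
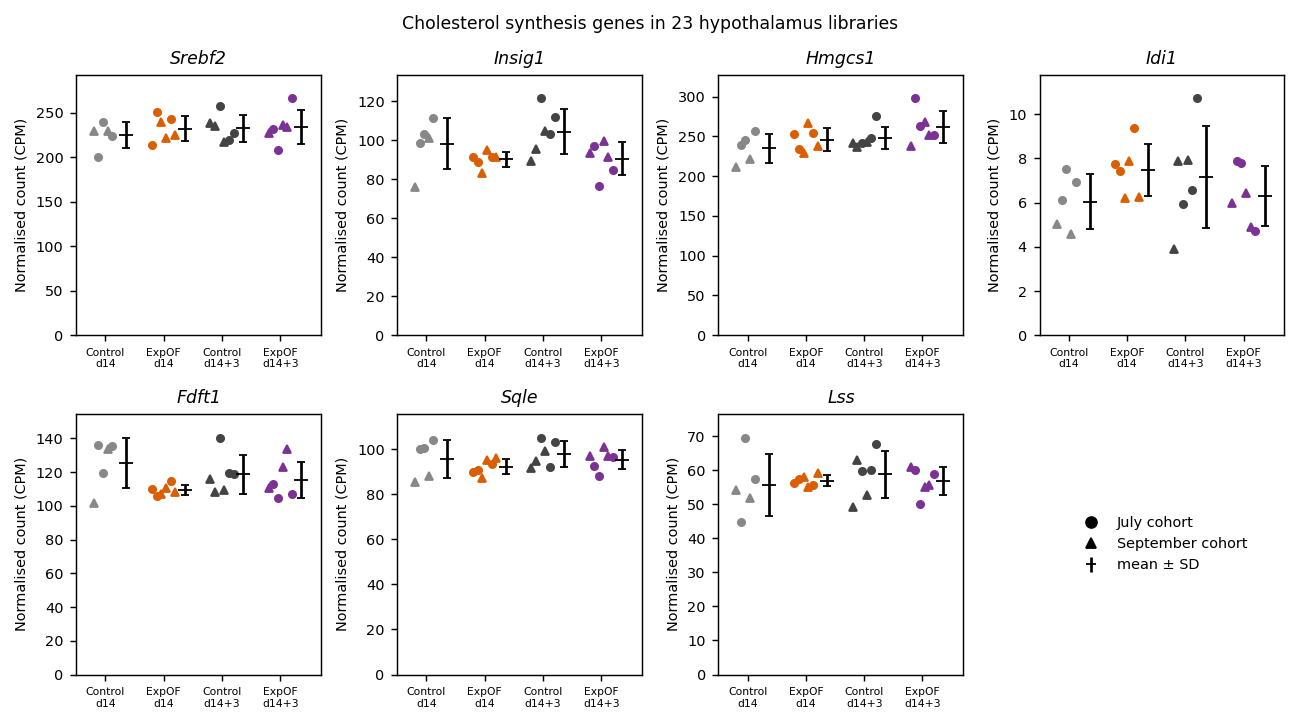
Normalised counts (CPM, y axis from 0, 1 panel per gene) of the 7 cholesterol synthesis genes in each of 23 libraries, by group, with circles for the July and triangles for the September cohort and the mean ± SD beside each group. In every panel the groups overlap. For Fdft1, 4 of the 5 Control d14 libraries lie above all ExpOF d14 libraries and 1 lies below them.

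Srebf2 (ENSMUSG00000022463, chr15:82147181-82204675, plus strand) encodes the factor that drives the pathway, and it hosts the microRNA gene Mir33. Its normalised counts in Control d14 were 200.6, 224, 229, 230 and 239 CPM, and ExpOF d14 libraries ran from 214 through a median of 232 to 251 CPM. On d14+3 the lowest, median and highest were 217, 231 and 257 CPM in Control and 208, 233 and 266 CPM in ExpOF. The groups overlapped on both days, with 3 of the 6 ExpOF d14 libraries above every control. ExpOF minus Control was 0.05 (SE 0.06) on the log2 scale on d14 and 0.01 (SE 0.06) on d14+3 (edgeR adjusted p = 0.621 and 0.973). On d14 this value was -0.03 once each library's trend with gene length was removed, and it was -0.03 on d14+3, so no direction is given for Srebf2. With all 24 libraries the d14 value was 0.12 (adjusted p = 0.243). The 95% intervals were -5.36% to 12.9% on d14 and -7.50% to 9.45% on d14+3.

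Insig1 (ENSMUSG00000045294, chr5:28071363-28077051, plus strand) encodes the membrane protein that retains the SREBP complex in the endoplasmic reticulum, and the gene is itself switched on by SREBP2. Control d14 held 76.2, 98.9, 101, 103 and 112 CPM, and ExpOF d14 ran from 83.4 through 91.4 to 94.8 CPM. All ExpOF d14 libraries were thus below 4 of the 5 controls and above the fifth, Control d14 replicate 1. On d14+3 Control ran from 89.2 through 104 to 122 CPM and ExpOF from 76.6 through 92.6 to 99.8 CPM, with 2 of the 6 ExpOF libraries below every control.

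On d14+3 Insig1 was the member with the smallest p: ExpOF minus Control was -0.20 (SE 0.08) on the log2 scale, with a 95% interval of -22.7% to -2.51%. Its unadjusted p was 0.0190 and its adjusted p 0.594, so it did not pass the threshold. The two-sided exact permutation test of the same 6 against 6 libraries gave p = 0.0433, unadjusted for the 14 such tests (7 genes on 2 days). Within cohorts the value was -0.38 in July and -0.03 in September. With RIN as a covariate it was -0.24 (adjusted p = 0.295). On d14 the Insig1 difference was -0.12 (SE 0.09, adjusted p = 0.336), at -0.21 in July and 0.01 in September.

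Hmgcs1 (ENSMUSG00000093930, chr13:119690379-119708082, plus strand) encodes the cytosolic HMG-CoA synthase, which builds the precursor of mevalonate. It measured 212, 221, 240, 245 and 257 CPM in Control d14 and 229 to 267 CPM (median 245) in ExpOF d14. On d14+3 it ran from 237 through 242 to 275 CPM in Control and from 238 through 258 to 298 CPM in ExpOF. The ExpOF mean was higher on both days, by 0.07 (SE 0.06) on d14 and 0.08 (SE 0.06) on d14+3 on the log2 scale, and neither passed the test (adjusted p = 0.486 and 0.775). In July alone the d14 value was -0.002. The intervals were -4.16% to 14.3% and -2.79% to 14.9%.

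Idi1 (ENSMUSG00000058258, chr13:8885501-8891358, plus strand) encodes the isomerase that readies isopentenyl diphosphate for chain growth. It was the scarcest member, with 3727 counts over the 23 libraries, and the most variable one. Control d14 libraries held 4.57, 5.03, 6.12, 6.95 and 7.51 CPM, and ExpOF d14 ran from 6.22 through 7.59 to 9.35 CPM. Of the 6 ExpOF d14 libraries 3 were above every control.

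On d14+3 the order of the Idi1 means was the other way round: Control ran from 3.91 through 7.21 to 10.7 CPM and ExpOF from 4.71 through 6.20 to 7.88 CPM, all ExpOF values lying inside the Control range. The log2 difference was 0.29 (SE 0.19, adjusted p = 0.314) on d14 and -0.18 (SE 0.18, adjusted p = 0.802) on d14+3. The difference between these differences, -0.47 (SE 0.26), had an unadjusted p of 0.0872 and an adjusted p of 0.903 in edgeR. The exact permutation p on d14 was 0.0801 over 23 libraries and 0.0390 when Control d14 replicate 4 was included, where the edgeR difference was 0.45 (adjusted p = 0.143). That library held 21 counts of Idi1 (2.18 CPM), fewer per library size than any other Control d14 library. The d14 interval of Idi1 over 23 libraries was wide, -6.87% to 61.1%.

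Fdft1 (ENSMUSG00000021273, chr14:63145150-63179578, minus strand) encodes squalene synthase, the enzyme that commits the pathway to sterols. Control d14 libraries held 102, 119, 134, 135.7 and 136 CPM. The 6 ExpOF d14 libraries lay close together, from 106 through 109 to 114 CPM, below 4 controls and above Control d14 replicate 1. On d14+3 Control ran from 108 through 118 to 141 CPM and ExpOF from 105 through 112 to 133 CPM, with 2 ExpOF libraries below every control.

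The d14 difference of Fdft1 was -0.20 (SE 0.08) on the log2 scale, with an interval of -21.9% to -2.68%. Fdft1 was the only member with an unadjusted p under 0.05 on d14, and its edgeR adjusted p of 0.141 missed the threshold. The exact permutation test of 6 against 5 libraries gave p = 0.0455, where the smallest p it can give is 0.00216. The value was -0.25 in July and -0.12 in September. With all 24 libraries it was -0.33 (adjusted p = 0.0640), as Control d14 replicate 4 held 204.8 CPM of Fdft1. On d14+3 it was -0.04 (SE 0.07, adjusted p = 0.875), at -0.22 in July and 0.13 in September. The Fdft1 gene overlaps Ctsb, a lysosomal protease gene on the opposite strand with 416913 counts against 65177 for Fdft1, and whether the authors counted by strand is not given in the sources used here. Ctsb differed by -0.15 (SE 0.06, adjusted p = 0.139) on d14, and its part in the Fdft1 counts was not tested.

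The call on Fdft1 depended on a single library. Without Control d14 replicate 1, edgeR put Fdft1 past the threshold on d14 (-0.26, SE 0.07, adjusted p = 0.0217), and Fdft1 was then 1 of 7 members called. In that same fit 4220 of 19206 genes passed, 22% of those tested, so the members' count was no larger a share than the background. With each library's trend against gene length removed as well, a fit chosen after seeing the data, Fdft1 again passed in edgeR (-0.24, adjusted p = 0.0426). Control d14 replicate 1 was the lowest of its group for Insig1, Hmgcs1, Fdft1 and Sqle. It was the second highest for Srebf2 and the median for Lss. It had the highest summed level of the 2 pituitary markers tested (95.6 CPM, against group medians of 1.67 to 8.81 CPM) and the lowest of oligodendrocyte markers (5468 CPM). Its oligodendrocyte precursor markers were the highest by a narrow margin (184 CPM, against 183 CPM in the next library), and its RIN was 8.6. The part of these in the result was not tested.

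Sqle (ENSMUSG00000022351, chr15:59315077-59331192, plus strand) encodes squalene monooxygenase, which makes the epoxide that is later closed into a ring. It measured 85.2, 88.1, 100.2, 100.5 and 104 CPM in Control d14 and 87.3 to 96.2 CPM (median 92.1) in ExpOF d14. On d14+3 the range was 91.7 to 105 CPM (median 96.8) in Control and 88.2 to 101 CPM (median 96.6) in ExpOF. The groups overlapped on both days. Sqle was the member whose values bounded a change most closely: ExpOF minus Control was -0.05 (SE 0.06) on d14 and -0.04 (SE 0.05) on d14+3 (adjusted p = 0.534 and 0.858), with intervals of -11.2% to 4.44% and -9.67% to 5.44%. In the September cohort both values were above 0, at 0.10 and 0.04.

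Lss (ENSMUSG00000033105, chr10:76531588-76555479, plus strand) encodes lanosterol synthase, which closes the first ring system of the sterols. Control d14 libraries held 44.9, 51.8, 54.3, 57.4 and 69.6 CPM, and all 6 ExpOF d14 libraries lay within that range, from 54.9 through 56.9 to 59.1 CPM. On d14+3 the values were 49.2 to 67.8 CPM (median 60.0) in Control and 50.2 to 61.0 CPM (median 57.2) in ExpOF. The log2 difference was 0.03 (SE 0.09) on d14 and -0.05 (SE 0.08) on d14+3 (adjusted p = 0.819 and 0.868). With the gene length trend removed the d14 value was -0.12, and with all 24 libraries it was 0.13. The Lss model is the longest of the 7 at 10.8 kb, and across the 18992 genes the d14 difference correlated with gene length (Spearman's rho = 0.41, over genes, which are not independent replicates).

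**Figure D2:**
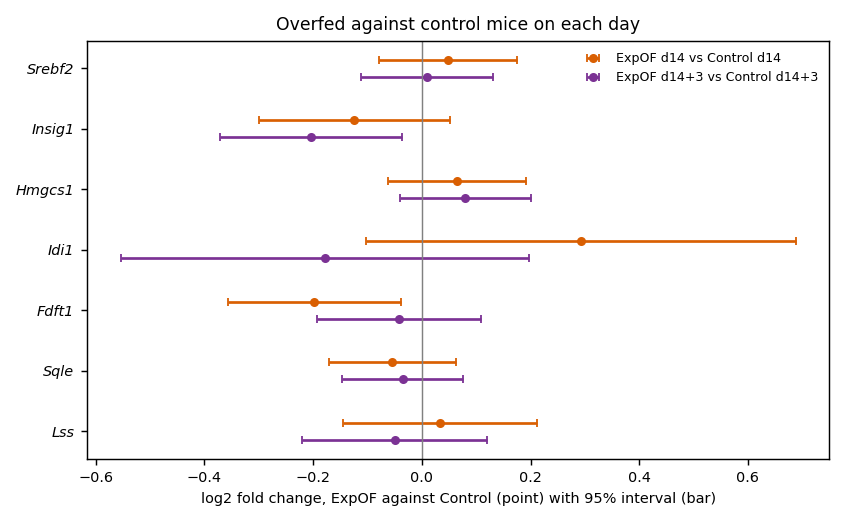
ExpOF against Control on d14 (orange) and d14+3 (purple) for each of the 7 genes, as the log2 fold change (point, x axis) with its 95% interval (bar). Of the 14 intervals 2 leave out 0, those of Fdft1 on d14 and Insig1 on d14+3, and neither passed after adjustment over all genes.

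Over all members, 0 of 7 passed on d14, where 1 of 18992 genes did (0.00527%), and 0 of 7 on d14+3, where 0 genes did (0%). DESeq2 also called 0 of the 7 on either day, while it called 165 genes in all on d14 and 40 on d14+3. Its smallest adjusted p for a member was 0.0931 on d14. At an unadjusted p under 0.05 edgeR had 1 of 7 on d14 beside 26.7% of all genes, and 1 of 7 on d14+3 beside 7.11%. In no member did the ExpOF and Control libraries separate completely on either day, while this was so for 2.5% of all genes on d14 and 0.421% on d14+3. The median log2 difference of the members was 0.03 on d14 and -0.04 on d14+3, and over all genes it was -0.02 and 0.01.

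Whether the effect of overfeeding differed between the days was asked with the interaction term. It called 0 of 7 members and 0 of all genes, with 0 members and 4.42% of all genes at an unadjusted p under 0.05. DESeq2 likewise called 0 members and 0 of all genes. From d14 to d14+3, 0 of 7 members passed in ExpOF mice, where 0 of all genes did (0 members and 7.79% of genes unadjusted). In Control mice 0 of 7 passed, beside 1.15% of all genes (0 members and 12.7% unadjusted). DESeq2 called 0 members in both, beside 189 genes in all in ExpOF mice and 531 in Control mice. The Control means of 6 of the 7 were higher on d14+3, by up to 0.24 (Idi1), and that of Fdft1 was lower by mean, at -0.08. These day comparisons share their libraries with the overfeeding comparisons.

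The members were less spread in overfed mice on d14. For all 7 genes the SD of log2 values was smaller in ExpOF d14 than in Control d14. The contrast was widest in Lss (0.04 against 0.23), Fdft1 (0.04 against 0.18) and Insig1 (0.06 against 0.21). The same order held for 73% of all genes, so it was not particular to these 7. On d14+3 the SD was smaller in ExpOF for 5 of the 7 members and for 47.7% of all genes.

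Among 48 other genes of the pathway, from 4 lists, 0 passed the edgeR test in any of the 5 comparisons. DESeq2 called 1, Hsd17b7 between the Control days, where it called 531 genes in all, and 0 in the other 4. Unadjusted in edgeR, 15 of the 48 had a p under 0.05 on d14, 8 of them higher and 7 lower in ExpOF, and 5 did on d14+3, beside the background shares given above. Of the 17 other genes of mevalonate and sterol synthesis, 13 had a lower mean in ExpOF on d14 and 13 on d14+3, with medians of -0.09 and -0.10 on the log2 scale. That is 76.5% of the list on each day, against 53.4% and 47.9% of all genes. The d14 difference moved with gene length (a median of -0.20 among the shortest genes and 0.13 among the longest, of 5 classes of equal size). So did the d14+3 difference, less steeply (-0.06 and 0.06). The part of gene length in the counts of either day was not tested. The smallest p on d14 belonged to Ggps1, which makes geranylgeranyl diphosphate (0.26, SE 0.08), Sc5d, a late desaturase (0.24, SE 0.08), and Fdps, which makes farnesyl diphosphate (-0.40, SE 0.14), with adjusted p of 0.135, 0.135 and 0.138. On d14+3 they were Dhcr7, the last reductase (-0.14), Acat2, the first thiolase (-0.15), and Nsdhl, a demethylating enzyme (-0.10), with adjusted p of 0.688 to 0.723.

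The groups did not overlap on d14 for 3 of the 48 genes (6.25%, against 2.5% of all genes), 1 higher and 2 lower in ExpOF, and for 0 on d14+3 (0.421% of all genes). Sc5d in ExpOF d14 libraries (89.4 to 97.7 CPM) lay above all Control d14 libraries (69.7 to 86.0 CPM). Srebf1 in ExpOF d14 (115 to 124 CPM) lay below Control d14 (131 to 156 CPM), as did, by a narrow margin, Rnf145, another ubiquitin ligase of the sterol response (109.9 to 113.3 against 113.4 to 120.3 CPM). On d14+3 the Sc5d groups overlapped (73.7 to 97.5 CPM in ExpOF and 71.1 to 98.1 CPM in Control), and its difference was 0.004. The Fdps libraries of ExpOF d14 (11.7 to 13.6 CPM) lay inside the Control d14 range (10.9 to 20.1 CPM). Fdps makes the substrate of squalene synthase, the Fdft1 product.

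Of the 9 other genes of SREBP processing, those with the smallest p on d14 were Mbtps2, a protease that frees SREBP (0.28), Rnf139, a ubiquitin ligase of the sterol response (0.17), and Srebf1, the sister factor that leans to fatty acid synthesis (-0.24). The adjusted p were 0.140, 0.147 and 0.159. The same 3 genes led on d14+3, with Rnf139 at 0.19, Mbtps2 at 0.18 and Srebf1 at -0.17 (adjusted p = 0.544, 0.750 and 0.766). Of the 11 genes of uptake and intracellular transport, Npc2, which carries cholesterol out of lysosomes, stood at -0.25, Vldlr, a lipoprotein receptor, at 0.21 and Stard4, a sterol carrier, at 0.20 on d14 (adjusted p = 0.135, 0.135 and 0.144). On d14+3 Mylip, which marks lipoprotein receptors for decay, led at 0.15, followed by Lipa, the lysosomal lipase, at 0.11 and Vldlr at 0.10 (adjusted p = 0.707 to 0.775).

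Of the 11 genes of oxysterols, LXR and efflux, Cyp27a1, which makes an oxysterol, stood at -0.31 on d14 (adjusted p = 0.139). On that day Apoe, the main apolipoprotein of the brain, stood at -0.41 and Soat1, which esterifies cholesterol, at 0.18 (adjusted p = 0.139 and 0.195). On d14+3 Apoe stood at -0.34, Ch25h, which makes another oxysterol, at 1.14 and Abcg4, a sterol exporter, at 0.07 (adjusted p = 0.647, 0.702 and 0.797). Ch25h lay at 2.47 CPM or less in every library. Without Control d14 replicate 1, 15 of the 48 passed on d14, 8 higher and 7 lower, beside the 22% of all genes named above. They included Ggps1 (0.33), Sc5d (0.27), Vldlr (0.27), Fdps (-0.51), Apoe (-0.51), Npc2 (-0.30) and Cyp27a1 (-0.36).

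**Figure D3:**
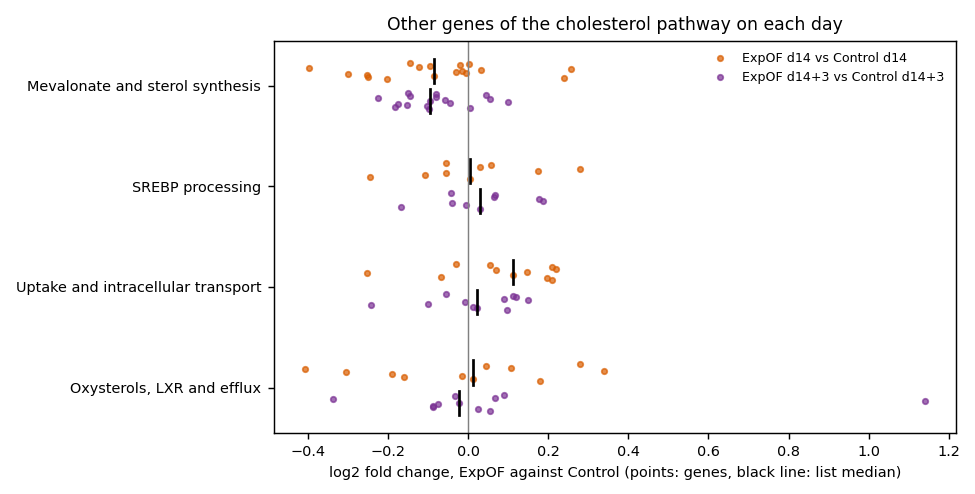
ExpOF against Control log2 fold changes (x axis) of the 48 other pathway genes, by list, on d14 (orange) and d14+3 (purple), with 1 point per gene and a black line at each list's median. The synthesis list has its medians at -0.09 and -0.10, no point passed the test, and the point at 1.14 is Ch25h.

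Whether mice of the same group differed in these genes in a shared way was asked next. Each group's mean was subtracted from the log2 values, and the deviations of the 7 genes were correlated over 23 libraries. Of the 21 pairs 17 had a positive Pearson's r, with a median of 0.34. For 3 pairs the adjusted permutation p of r was under 0.05 (permutation within groups, 100000 draws, adjusted over the 21 pairs), and for 4 pairs that of Spearman's rho was. When the mean of each cohort within a group was subtracted instead and values were permuted within group and cohort, a test chosen after seeing the data, 17 pairs were again positive, the median r was 0.23, and 1 pair passed by either measure.

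Insig1 and Sqle were the closest pair and the one that passed both ways, with r = 0.79 and rho = 0.74 (adjusted permutation p = 0.00147 and 0.00462). Without the 2 libraries farthest from the median r was 0.68. The value was 0.76 in July and 0.79 in September. With cohort means subtracted r was 0.69 and rho 0.75 (adjusted permutation p = 0.0393 and 0.0298). Insig1 and Fdft1 gave r = 0.74 and rho = 0.67 (adjusted permutation p = 0.0119 and 0.0169), 0.58 without the 2 farthest, 0.76 in July and 0.71 in September. With cohort means subtracted this pair did not pass (r = 0.58, adjusted permutation p = 0.379). Fdft1 and Sqle did not pass either way (r = 0.57, adjusted permutation p = 0.0952, and r = 0.33, adjusted permutation p = 0.418).

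Hmgcs1 and Idi1 formed the other close pair, with r = 0.65 and rho = 0.74 (adjusted permutation p = 0.0119 and 0.00462). Without the 2 farthest libraries r was 0.53, in July 0.77 and in September 0.28. Both genes had a higher mean in July than in September in all 4 groups, and with cohort means subtracted the pair did not pass (r = 0.53, adjusted permutation p = 0.206). Insig1 and Hmgcs1 passed by rho alone (r = 0.53, rho = 0.56, adjusted permutation p = 0.0952 and 0.0384), and not with cohort means subtracted (adjusted permutation p of rho 0.117). The value for Fdft1 and Lss depended on the processing, at -0.10 over 23 libraries, -0.56 over all 24 and 0.55 with the gene length trend removed.

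Among the 7, Srebf2 had the lowest r with the mean of the others. Its r with the mean of the other 6 members was -0.07, whereas that of Insig1 was 0.71, of Sqle 0.67 and of Hmgcs1 0.64. Lss (0.43), Idi1 (0.35) and Fdft1 (0.24) lay between. The means were of unscaled log2 deviations, so Idi1, with an SD of 0.34 against 0.09 to 0.15 in the others, weighed most wherever it was included. Fdft1 had an r of -0.08 with Idi1, 0.74 with Insig1 and 0.57 with Sqle. The Srebf2 pairs ranged from -0.32 with Idi1 to 0.41 with Lss, and none passed. These values depended on the processing. With all 24 libraries Srebf2 gave 0.25 with Idi1, 0.66 with Lss and -0.48 with Fdft1, and with the gene length trend removed it gave 0.53 with Lss, 0.50 with Fdft1, 0.39 with Sqle and 0.28 with Insig1. Every r here is over the RNA of whole tissue, and SREBP2 protein was not measured.

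**Figure D4:**
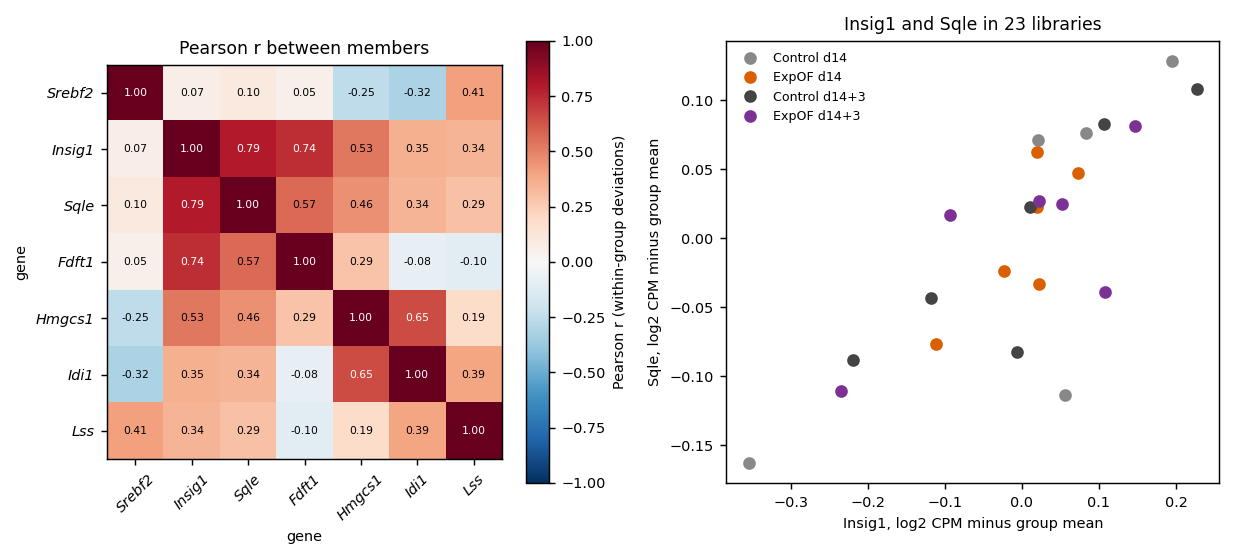
Left, Pearson's r of each pair of the 7 genes over 23 libraries, from log2 CPM minus the group mean, on a colour scale from -1 to 1. Right, the deviations of Insig1 (x axis) and Sqle (y axis) in each library, coloured by group. The 2 rise together with r = 0.79, and the point at the lower left is Control d14 replicate 1.

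Genes outside the 7 that followed them most closely were ranked by the r of their deviations with the mean of the 7, over the same 23 libraries and 18985 genes. That mean was unscaled as well, so Idi1 weighed most in it. Among the closest were Rtn3 (r = 0.81), Phf13 (0.80), Ppp1r3c (0.79), Fam76a (0.77), Gm37033 (0.76), Rabl3 (0.75) and Wdr43 (0.73). Cyp51, the lanosterol demethylase of the same pathway, stood with them (0.77).

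Other pathway genes with a high r were Msmo1, a sterol oxidase (0.73), and Stard4 (0.66). The median r of all 48 was 0.03, against 0.01 for all genes, and the lists differed. In mevalonate and sterol synthesis every gene had a positive r, the lowest at 0.03. Dhcr7 stood at 0.50, Fdps and Sc5d at 0.38 and Nsdhl at 0.13. Each of the other lists held values of both signs. The lowest of the 48 were Nr1h3, a liver X receptor gene (-0.50), Lipa (-0.48) and Abcg4 (-0.45). These correlations share libraries, cohorts and depth, and they are given as a description.

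The mean of the 7 members had an r of 0.03 with the total count and of 0.18 with RIN, over the 23 libraries. Against cell type markers, the median r with it was 0.04 for 5 neuronal, 0.26 for 5 astrocyte and 0.09 for 6 oligodendrocyte genes. It was -0.56 for 3 genes of oligodendrocyte precursors, -0.49 for 4 leptomeningeal and -0.42 for 3 endothelial genes. Single genes ran from -0.59 to 0.03, from -0.57 to -0.16 and from -0.53 to -0.08 in these 3 lists. For 4 microglial genes the median was -0.35, and they went both ways (-0.47 to 0.59). The hypothalamic, choroid plexus and pituitary lists had medians of 0.19, -0.06 and -0.11. The part of these cells in the shared variation was not tested.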

How the data were processed

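Hypothalamic RNA of 24 mice was sequenced by the authors as poly-A selected, stranded libraries with paired 51-base reads. The authors aligned the reads with STAR to mm10 and summarised them onto GENCODE vM22 genes with featureCounts 1.6.4, and the deposited values are raw counts per gene, not normalized. Groups, cohort, extraction round and RIN came from the labels.

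Here the counts were tested in R 4.3.3 with edgeR 4.0.16 (quasi-likelihood F-test, filterByExpr with a minimum count of 10 and minimum total of 15, TMM, robust, 4 groups in a single fit), with Benjamini-Hochberg adjustment over all genes tested and a threshold of 0.05. DESeq2 1.42.0 was the alternative tool. CPM are TMM-scaled, and log2 values use a prior count of 2. RPKM use the gene length in the deposited table. Intervals are 95% intervals of the fit, and single values were compared by two-sided exact permutation. Alternatives changed the tool, scaling, filter, covariates, cohort, libraries or the trend with gene length, 1 at a time except where a library and the length trend are named together. P-values set a difference or a relation against the spread between mice, with 1 library per mouse. The test was also run on counts simulated with the same dispersion (spread between libraries) for every gene. No outlying library and no cohort, RIN or gene length effect was simulated, so that run cannot speak to these. Symbols matched for 55144 of 55471 genes.

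The 7 members and the pathway lists were chosen with earlier results of these data known. Named are all members, in each list the 3 genes with the smallest p on each day, and the 10 genes with the closest deviations, of which some are not reported here. Others (Msmo1, Nr1h3, Rnf145 and Hsd17b7, and members of the lists named again) were named after their values were seen.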

Additional observations from a re-analysis of the deposited data

Results flagged for a closer look

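The highest and lowest library of each group was compared with its neighbours for each of the 7 genes, 28 tests in all, of which chance marks about 1 in 20. In 2 of them the highest library stood apart by Dixon's gap test. Hmgcs1 in Control d14+3 replicate 6 measured 275.4 CPM, against 248 CPM in the next library of that group. Fdft1 in Control d14+3 replicate 3 measured 140.5 CPM, against 119 CPM in the next. Without that library the d14+3 difference of Fdft1 was 0.01 in place of -0.04 on the log2 scale, and neither value passed the test.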

How the results depend on the processing

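Among the recomputed member differences 846 kept their direction and side of the threshold, 55 changed sign and 2 newly passed (Fdft1 on d14, adjusted p 0.0217 to 0.872 over its alternatives). The changes of sign were among small differences that passed in no fit, and the cause was not tested. Genes called numbered 165 (d14), 40 (d14+3), 189 (ExpOF days) and 531 (Control days) with DESeq2, which also called 1 pathway gene between the Control days. They numbered 2 on d14, 123 between ExpOF days and 0 between Control days when each comparison was fitted on its own groups, 28 (ExpOF days) with at least 10 counts in every library, 78 (ExpOF days) with cohort and extraction round and 26 (d14+3) with RIN. Either cohort alone called 0 genes on d14 and 0 between Control days, with fewer libraries. Without Control d14 replicate 1 and with the length trend removed, chosen after seeing the data, 1214 genes, 1 member and 3 pathway genes passed on d14, and Srebf2 stood at -0.055 and Lss at -0.17. Leaving out single libraries gave 1 to 4220 genes, 0 to 1 members and 0 to 15 pathway genes on d14 (the highest without Control d14 replicate 1). It gave 0 to 157 genes between ExpOF days (157 without ExpOF d14+3 replicate 3, 87 without ExpOF d14 replicate 4), 24 to 313 between Control days and 0 to 1 pathway genes there (1 without Control d14 replicate 6). With all 24 libraries 2 members had a permutation p under 0.05 on d14 in place of 1, and 2 pairs of members passed in place of 3. With the length trend removed 6 pairs did and with cohort means subtracted 1 did, both chosen after seeing the data.

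The replicate numbers did not pair the mice: same-numbered libraries of a day correlated by -0.21 to 0.22. A fit with the replicate block called 33 genes between Control days in place of 218, and it changed no other count and no call on a member. "Only the groups compared" gave no interaction value.

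Member differences changed sign as follows, on the log2 scale. With all 24 libraries the interaction of Hmgcs1 was -0.029, and between ExpOF days Srebf2 was -0.00206 and Insig1 -0.00533. In July Hmgcs1 was -0.00157 and Lss -0.021 on d14, Insig1 -0.068, Fdft1 -0.019 and Lss 0.000874 between ExpOF days, and Sqle -0.018 between Control days. In September Srebf2 was -0.00855, Insig1 0.014 and Sqle 0.097 on d14, Fdft1 0.13, Sqle 0.040 and Lss 0.051 on d14+3, the interactions of Srebf2, Hmgcs1 and Sqle were 0.016, -0.11 and -0.057, and Lss was 0.00172 between ExpOF days. With RIN Srebf2 was -0.036 on d14+3 and Lss 0.00302 between ExpOF days. With the length trend removed Srebf2 was -0.035 and Lss -0.12 on d14, Srebf2 -0.030 on d14+3, the interactions of Srebf2 and Lss 0.00499 and 0.00652, and between ExpOF days Insig1 was -0.00547 and Lss 0.014. Over single libraries left out, Lss on d14 ran from -0.038 to 0.13. On d14+3 Srebf2 ran from -0.032 to 0.040 and Fdft1 from -0.086 to 0.011. Interactions ran from -0.080 to 0.00286 (Srebf2), -0.015 to 0.049 (Hmgcs1) and -0.00801 to 0.048 (Sqle). Between ExpOF days Srebf2 ran from -0.031 to 0.044, Insig1 from -0.017 to 0.054 and Lss from -0.026 to 0.032, and between Control days Sqle ran from -0.00656 to 0.061.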

Other observations

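Hsd17b7, a reductase late in sterol synthesis, was the pathway gene with the smallest p between the days, in both Control and ExpOF mice. It ran from 12.6 through 16.9 to 20.7 CPM in Control d14 and from 18.6 through 21.9 to 23.1 CPM in Control d14+3, a log2 difference of 0.37 (SE 0.10, edgeR adjusted p = 0.0586). In ExpOF mice it ran from 15.4 through 16.5 to 18.5 CPM on d14 and from 16.6 through 20.6 to 22.4 CPM on d14+3, a difference of 0.29 (SE 0.09, adjusted p = 0.266). DESeq2 called Hsd17b7 in the Control comparison, alone among the 48 pathway genes, and it called 531 genes in all there. The r of Hsd17b7 with the mean of the 7 members was 0.55. The gene was singled out after its values were seen.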
